A study of Mus musculus with 14 samples.

Results

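The Ly6 and Arc locus is a stretch of 600 kb on mouse chromosome 15, from base 74600001 to base 75200000 in the genome build mm10. Its members are all windows of 500 bases in the open chromatin data whose start is a multiple of 500, which gave 1200 windows of 5267565 on chromosomes 1 to 19 and X. The choice used position only and no measured value. Open chromatin was profiled with ATAC-seq, in which a transposase cuts accessible DNA and the cuts are counted by sequencing. The cells were 2 kinds of stem cell from the back skin of female mice of 24 months (aged) and 2 months (young), set free with trypsin and sorted by flow cytometry. Epidermal stem cells (EpdSC) were sorted as lineage-negative, integrin α6-high, CD34- and Sca1+ cells, and hair follicle stem cells (HFSC) as lineage-negative, integrin α6-high, CD34+ and Sca1- cells. ATAC-seq libraries numbered 1 each for aged EpdSC, young EpdSC, aged HFSC and young HFSC, and RNA-seq libraries 2 for each of these groups. The labels name no genetic change in these animals and do not say whether cells of several mice were pooled.

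Sca1, the surface protein that separated both populations in the sort, is the product of Ly6a, which lies within the locus. The Ly6 genes encode small proteins with a 3-finger fold, most of them held at the cell surface by a lipid (GPI) anchor, and they arose by repeated duplication, so that neighbours are often near copies. In mice, Ly6d and Ly6e are found in epithelia, Ly6a on stem cells and endothelium of several tissues, Ly6c1 and Ly6c2 on endothelium and monocytes, and Ly6g on neutrophils. Slurp1, Slurp2 and Lynx1 are relatives that modulate acetylcholine receptors. Arc, at the low end, is an immediate early gene best known from neurons, where it is transcribed soon after stimulation and acts in synaptic plasticity.

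RefSeq promoter sequences (GRCm38.p6, the assembly of mm10) were at hand for 5 of the 37 RefSeq genes that overlap the locus, and 4 of them are duplicated genes at the high end: Ly6c1, Ly6c2, Ly6a2 and Ly6g. They are shown because these genes arose by duplication and share promoter sequence, while only Ly6c1 among them had RNA above the filter, as given below. Each is the 250 bases before the outermost gene start, 5′ to 3′ on the gene's strand. They lie at chr15:75048838-75049087 (minus strand) for Ly6c1, chr15:75111972-75112221 (minus strand) for Ly6c2, chr15:75135129-75135378 (minus strand) for Ly6a2 and chr15:75155011-75155260 (plus strand) for Ly6g. Capitals mark the longest run that all 4 share, which is 12 bases long. Between the run and the gene start lie 139, 148, 143 and 95 bases in Ly6c1, Ly6c2, Ly6a2 and Ly6g.
Ly6c1: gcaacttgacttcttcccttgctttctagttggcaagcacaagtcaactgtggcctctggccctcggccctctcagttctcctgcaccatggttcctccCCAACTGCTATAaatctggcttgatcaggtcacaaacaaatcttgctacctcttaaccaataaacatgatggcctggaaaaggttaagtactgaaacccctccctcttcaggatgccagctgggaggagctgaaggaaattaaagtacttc
Ly6c2: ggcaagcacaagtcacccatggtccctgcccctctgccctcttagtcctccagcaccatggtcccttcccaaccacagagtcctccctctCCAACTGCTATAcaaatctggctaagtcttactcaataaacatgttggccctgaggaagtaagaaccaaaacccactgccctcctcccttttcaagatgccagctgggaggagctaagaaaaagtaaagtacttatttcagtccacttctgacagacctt
Ly6a2: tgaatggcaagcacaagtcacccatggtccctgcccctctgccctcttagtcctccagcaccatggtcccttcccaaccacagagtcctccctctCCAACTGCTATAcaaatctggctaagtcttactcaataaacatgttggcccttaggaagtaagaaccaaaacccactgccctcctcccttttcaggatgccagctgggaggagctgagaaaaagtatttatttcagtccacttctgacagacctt
Ly6g: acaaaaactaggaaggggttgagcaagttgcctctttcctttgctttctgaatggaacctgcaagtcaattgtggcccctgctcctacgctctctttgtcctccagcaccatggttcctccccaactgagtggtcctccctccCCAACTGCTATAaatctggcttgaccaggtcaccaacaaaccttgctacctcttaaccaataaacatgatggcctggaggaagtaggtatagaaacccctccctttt
In a global alignment, Ly6c2 and Ly6a2 shared 242 bases with 3 mismatches and 10 gap positions, and Ly6c1 and Ly6c2 shared 171 bases with 39 mismatches and 80 gap positions. The letters TATAAA were present in the promoters of Ly6c1 and Ly6g, where they begin 143 and 99 bases before the start, and not in those of Ly6c2 and Ly6a2, which differ right after the shared run. On either strand, 12.4% of all 32851 promoters of the table, cut to the same 250 bases, hold TATAAA. None of the 4 promoters held the letters searched for AP-1 (TGANTCA, in 6.75% of all promoters), CRE (TGACGTCA, 1.55%), GAS (TTCNNNGAA, 7.02%), the IRF element (GAAANNGAA, 7.13%), SP1 (GGGCGG, 32.7%) or factors of the GATA family (letters searched AGATAA, 9.99%), on either strand.

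The ATAC-seq libraries held 22933001 counts in aged EpdSC, 37322834 in young EpdSC, 8243611 in aged HFSC and 26169738 in young HFSC over all windows of the genome. Counts were divided by these totals to give CPM (counts scaled to the same library total), and a window was called open at a mean of at least 2 CPM over the 4 libraries. Open windows took 36.5% of counts in aged EpdSC, 34.5% in young EpdSC, 18.2% in aged HFSC and 33.9% in young HFSC, so the aged HFSC library stood apart in depth and in its share of counts in open chromatin. Over the open windows of the genome, the median of aged over young was 0.585-fold in HFSC and 1.04-fold in EpdSC, and the median of EpdSC over HFSC was 2.06-fold in aged mice and 1.13-fold in young mice. Counts and leading ratios that use aged HFSC are therefore also given relative to these medians. With 1 library per group there is no test of any ATAC-seq difference, and the 95% intervals below (exact Poisson for a level, exact binomial for a ratio) cover counting error only. The 8 RNA-seq libraries held 25126808 to 35905505 counts.

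By the mean of the 4 libraries, open windows were more frequent in the locus than in the genome. In the locus 39 of 1200 windows (3.25%) were open, against 1.27% of all windows, and 46 windows (3.83%) had no count in any library, against 8.11% of all windows. By library, 5.67% of the windows of the locus reached 2 CPM in aged EpdSC and 5.17% in young EpdSC, against 1.52% and 1.49% of all windows. In HFSC 1.17% of the locus reached it in aged mice and 1.25% in young mice, against 0.743% and 1.29% of all windows, so that young HFSC showed no excess. The open window nearest the threshold had a mean of 2.04 CPM and the highest window below it 1.90 CPM. The whole locus summed to 570 CPM in aged EpdSC, 518 in young EpdSC, 287 in aged HFSC and 255 in young HFSC. In each age EpdSC thus had about the same excess over HFSC, 1.98-fold (1.90 to 2.07) in aged mice and 2.04-fold (1.98 to 2.09) in young mice. With libraries scaled by their median ratio to the geometric mean over open windows, the locus sum was -0.12 on the log2 scale in aged mice. In young mice it was 0.84. That scaling comes from open windows only, while 208 of the 287 CPM of aged HFSC lay in windows below the threshold. In aged mice the open windows of the locus summed to 3.12-fold (2.88 to 3.39) in EpdSC over HFSC, against a genome median of 2.06-fold. Those below the threshold summed to 1.56-fold (1.48 to 1.64).

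**Figure D1:**
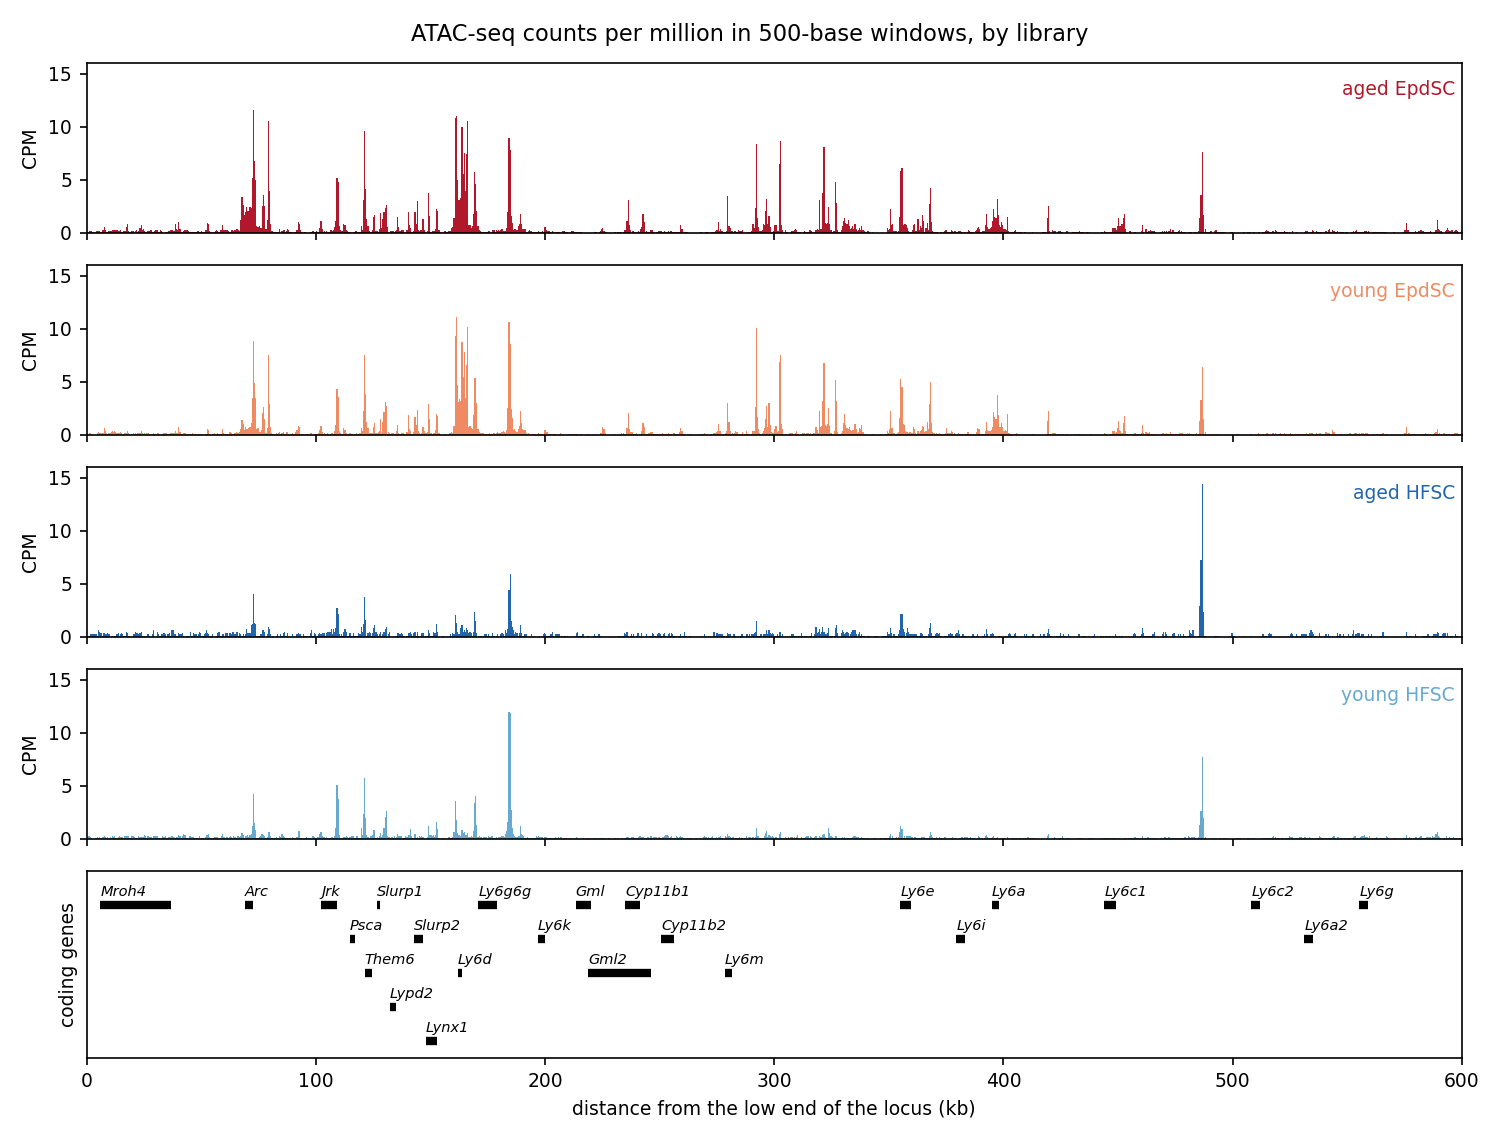
CPM per 500-base window (vertical axis) along the 600 kb (horizontal axis, distance from the low end) in each of the 4 ATAC-seq libraries, with coding genes at the bottom. Both EpdSC libraries show many peaks that the HFSC libraries lack or nearly lack, while the peak between Ly6c1 and Ly6c2 is highest in aged HFSC.

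The open windows form 17 elements, runs of neighbouring open windows. They are crowded between Arc and Ly6g6g, which hold 9 of them, and 4 more stand in the gene-poor stretch between Ly6m and Ly6e. Long stretches had no open window. The longest, 117.5 kb from 74968501 to 75086000, holds Ly6i, Ly6a and Ly6c1, the next, 113 kb up to the high end of the locus, holds Ly6c2, Ly6a2 and Ly6g, and another of 106.5 kb holds Ly6k, Gml, Gml2, Cyp11b1, Cyp11b2 and Ly6m. The duplicated Ly6 genes at the high end thus lie where no window reached the threshold.

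In CPM, most open windows of the locus had at least 2-fold more signal in EpdSC, in young mice and in aged mice. Relative to the genome median, this held for most of them in young mice but not in aged mice. Of the 39 open windows, 25 were at least 2-fold higher in young EpdSC than in young HFSC and 0 at least 2-fold lower, where 23.1% of all open windows of the genome were higher and 13.3% lower. In aged mice 33 of 39 were at least 2-fold higher in EpdSC and 0 lower, against 52.0% and 8.09% of the genome. Relative to the genome median these counts became 23 higher and 0 lower in young mice (19.9% and 15.2% of the genome) and 18 higher and 2 lower in aged mice (15.9% and 15.7% of the genome). Without that scaling, the same 25 windows were higher in EpdSC at both ages, which share no library, and 8 more in aged mice only. Over the genome, 14863 open windows (22.3%) were higher at both ages, of 15397 (23.1%) higher in young mice. Such an overlap was thus common to open windows of the genome. By element, 15 of 17 were at least 2-fold higher in EpdSC in aged mice and 11 of 17 in young mice, with 0 lower at either age. Relative to the genome median, 8 were higher and 1 lower in aged mice, and 11 higher and 0 lower in young mice. A window can reach the open threshold through EpdSC alone, so these counts of windows and elements are no support by themselves. The genome shares beside the window counts follow the same rule. In the locus 68 windows reached 2 CPM in aged EpdSC and 62 in young EpdSC, against 14 in aged HFSC and 15 in young HFSC.

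**Figure D2:**
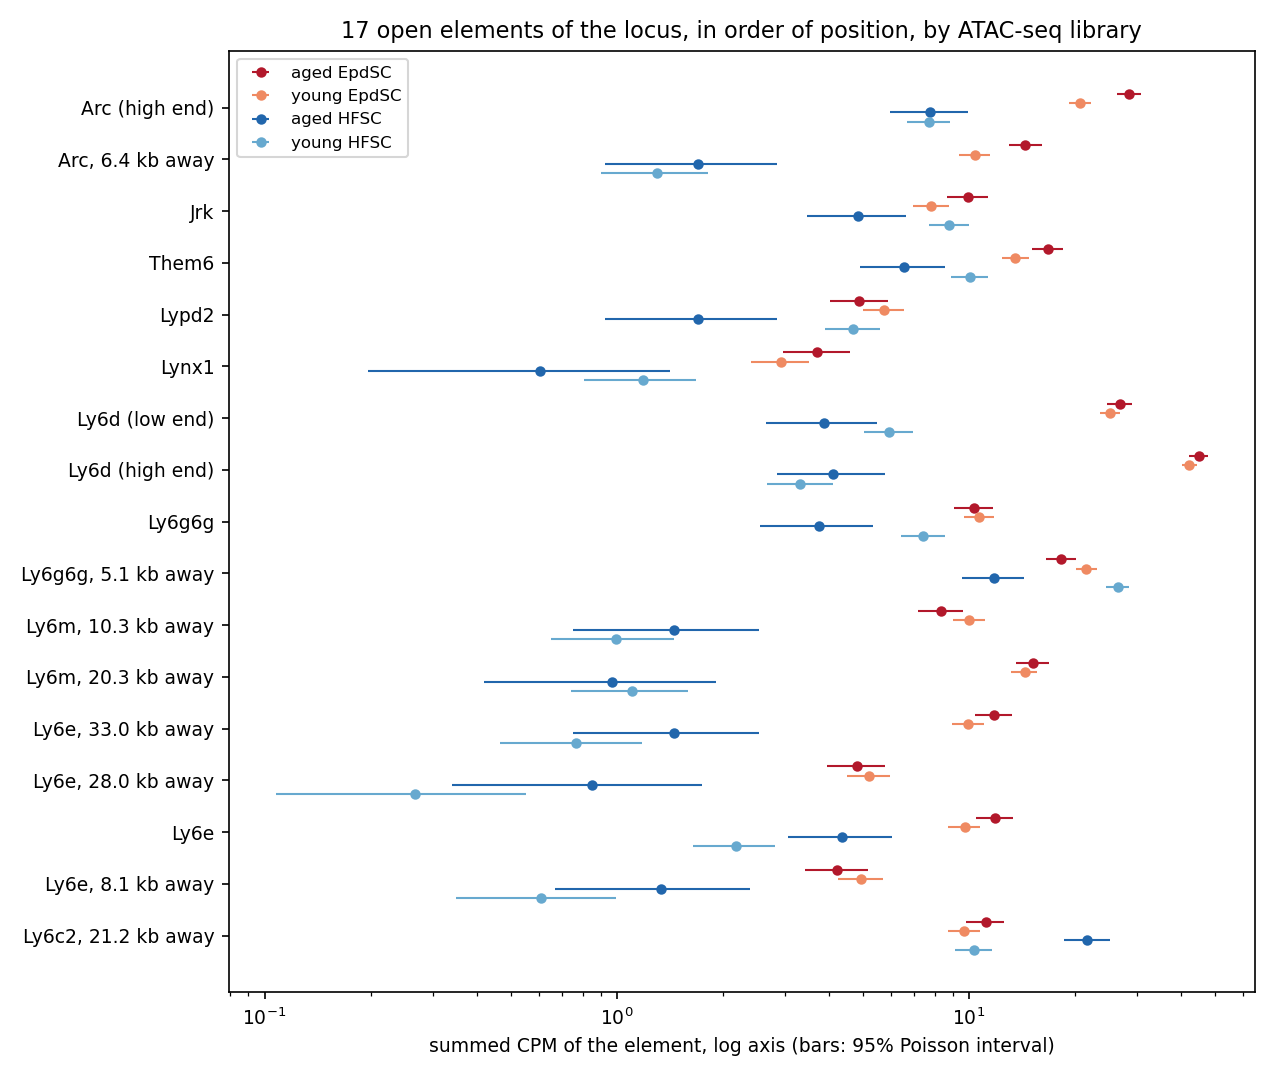
Summed CPM (horizontal log axis) of each of the 17 open elements in the 4 ATAC-seq libraries, top to bottom in order of position and named by the nearest gene, with 95% Poisson intervals. In young mice the widest gaps between EpdSC and HFSC are at the high end of Ly6d and in the 4 elements between Ly6m and Ly6e, and the last element is highest in aged HFSC.

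The Ly6d gene, a short gene whose product is a surface protein of squamous epithelia, has an open element at each end. The element next to its low end (74760501 to 74762000) had 26.8 CPM in aged EpdSC and 25.1 in young EpdSC, against 3.88 in aged HFSC and 5.92 in young HFSC. The element over its high end (74763501 to 74766500) had 45.0 CPM in aged EpdSC and 42.2 in young EpdSC, against 4.12 in aged HFSC and 3.32 in young HFSC. The excess of EpdSC over HFSC in the high-end element was 10.9-fold (7.75 to 15.8) in aged mice, or 5.30-fold relative to the genome median, and 12.7-fold (10.2 to 15.9) in young mice. All 6 of its windows stood above 3 CPM in both EpdSC libraries and at or below 1.09 CPM in both HFSC libraries. These windows are part of a run of 14 neighbouring windows, 7 kb long, that were each at least 2-fold higher in young EpdSC than in young HFSC. The genome held 63 runs of that length or longer in the same comparison, among 22850 runs of 2 or more windows.

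RNA of Ly6d followed the same order. Ly6d RNA was 838 and 901 CPM in the aged EpdSC libraries and 687 and 574 CPM in the young EpdSC libraries, against 39.5 and 54.8 CPM in aged HFSC and 7.29 and 14.4 CPM in young HFSC. The groups of EpdSC and HFSC did not overlap at either age. The log2 fold change of EpdSC over HFSC was 4.20 ± 0.29 in aged mice and 5.86 ± 0.32 in young mice (SE, adjusted p = 9.97e-07 and 1.38e-07 in edgeR's quasi-likelihood test). Within HFSC, Ly6d was higher in aged mice with a log2 fold change of 2.12 ± 0.28 (SE, adjusted p = 0.0118), and the adjusted p was 0.0704 when the fit held the 4 HFSC libraries only. In bulk RNA, a change in the number of cells of a type and a change in RNA per cell cannot be told apart. Markers of other cell types moved with age in HFSC: 6 suprabasal keratinocyte genes, all measured, summed to 318 and 393 CPM in aged HFSC against 138 and 222 CPM in young HFSC, and 5 sebaceous genes to 281 and 363 CPM against 117 and 139 CPM. The 8 EpdSC and interfollicular basal genes, which include Ly6d and Ly6a, summed to 8213 and 11058 CPM in aged HFSC against 7864 and 7701 CPM in young HFSC. The 6 melanocyte genes went the other way, with 185 and 199 CPM in aged HFSC against 210 and 256 CPM in young HFSC. The part of these cell types in the difference of Ly6d was not tested.

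Ly6e, which encodes a surface protein made by many cell types and inducible by interferon, was the gene of the locus for which edgeR called a difference of the age effect between the populations. Ly6e RNA was 62.5 and 91.9 CPM in aged HFSC, against 9.35 and 8.81 CPM in young HFSC. In EpdSC it was 122 and 116 CPM in aged mice, against 100.4 and 81.3 CPM in young mice. Aged HFSC libraries thus lay near the EpdSC libraries, and young HFSC libraries far below them. The age effect in HFSC was a log2 fold change of 3.09 ± 0.21 (SE, adjusted p = 0.000187), and it exceeded that in EpdSC by 2.70 ± 0.27 (SE, adjusted p = 0.0144). In edgeR Ly6e was the only one of 21464 genes called for this difference, 0.00466% of those tested with 0.00% called lower, and without aged EpdSC replicate 2 the adjusted p of the difference was 0.0949. DESeq2 called this difference for Ly6e, Arc, Ly6d and Ly6a, with adjusted p = 6.78e-15, 0.000455, 0.00203 and 0.0132. The element over the low end of Ly6e (74955001 to 74956000) had 4.37 CPM in aged HFSC against 2.18 CPM in young HFSC, and 11.9 CPM in aged EpdSC against 9.73 CPM in young EpdSC. That is 2.00-fold (1.28 to 3.10) in HFSC and 1.22-fold (1.04 to 1.43) in EpdSC, and in HFSC 3.43-fold relative to the genome median. The summed suprabasal, sebaceous, and EpdSC and interfollicular basal markers above moved with Ly6e in HFSC too, while the melanocyte markers went the other way. The part of these cell types in the difference of Ly6e was not tested.

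**Figure D3:**
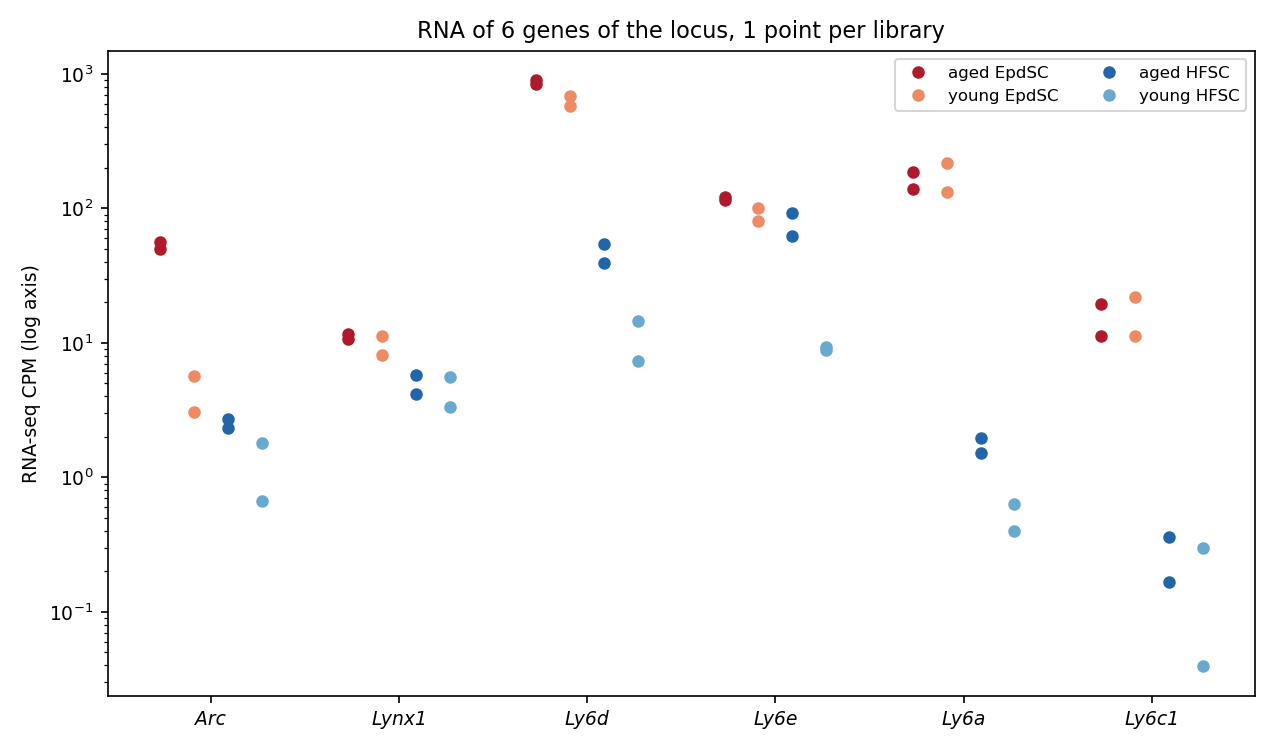
RNA-seq CPM (vertical log axis) of the 6 genes of the locus called between EpdSC and HFSC, 1 point per library and 2 libraries per group. Ly6a and Ly6c1 are far lower in every HFSC library (at most 1.97 and 0.362 CPM) than in every EpdSC library (at least 133 and 11.2 CPM), Ly6e in aged HFSC lies close to EpdSC, and Arc stands out in aged EpdSC.

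Ly6a, the gene of the sort marker Sca1, differed between populations by the way the cells were chosen, so its level is a check of the sort and not a finding. Ly6a RNA was 186 and 138 CPM in aged EpdSC and 218 and 133 CPM in young EpdSC, against 1.51 and 1.97 CPM in aged HFSC and 0.399 and 0.629 CPM in young HFSC. Its chromatin had no open window by the rule, because the mean includes HFSC. A run of 11 windows, 5.5 kb from 74994501 to 75000000, covers the gene and reaches past its high end, and each window was at least 2-fold higher in young EpdSC than in young HFSC. The run summed to 14.7 CPM in aged EpdSC and 15.4 CPM in young EpdSC, against 1.21 CPM in aged HFSC and 0.879 CPM in young HFSC. In young mice the ratio was 17.6-fold (11.6 to 27.9). Single windows of the run ranged from 0.523 to 3.18 CPM in aged EpdSC and from 0.429 to 3.78 CPM in young EpdSC, against 0 to 0.364 CPM in aged HFSC and 0 to 0.229 CPM in young HFSC. Every window of the run was thus lower in both HFSC libraries than the lowest EpdSC window. The windows were joined by their ratio of young EpdSC over young HFSC, so the ratio and the separation describe the run and test nothing. In aged over young HFSC, Ly6a RNA had a log2 fold change of 1.77 ± 0.41 (SE) that edgeR did not call (adjusted p = 0.123) and DESeq2 did (adjusted p = 0.000698).

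Of the duplicated genes at the high end, only Ly6c1 was tested in RNA, and it was higher in EpdSC. Ly6c1 RNA was 19.4 and 11.2 CPM in aged EpdSC and 21.8 and 11.3 CPM in young EpdSC, against 0.168 and 0.362 CPM in aged HFSC and 0.300 and 0.0393 CPM in young HFSC. EpdSC exceeded HFSC by a log2 fold change of 5.83 ± 0.59 in aged mice and 6.51 ± 0.63 in young mice (SE, adjusted p = 2.03e-05 and 1.17e-05 in edgeR). Ly6c2 had at most 6 counts, Ly6g at most 11 and Ly6a2 at most 2 in any of the 8 libraries, and none of these 3 passed the filter on low counts. Reads from duplicated genes may be assigned to either copy or to none. How alike the transcripts of Ly6c1 and Ly6c2 are was not examined, so the split between them is uncertain. The 5 windows around the start of Ly6c1 had 2.35 CPM in aged EpdSC and 1.82 CPM in young EpdSC, against 0.485 CPM in aged HFSC and 0.267 CPM in young HFSC. Those around the start of Ly6c2, whose promoter is printed above beside that of Ly6c1, had 0.131 CPM in aged EpdSC and 0.295 CPM in young EpdSC, against 0.121 CPM in aged HFSC and 0 counts in young HFSC, where 3 counts would be 0.115 CPM. At this depth a level of Ly6c2 of a few counts cannot be told from 0. Ly6c1 and Ly6a are also made in endothelium. The 5 endothelial markers summed to 1.38 to 4.39 CPM and the 4 neutrophil markers to 0.0787 to 1.17 CPM over the 8 libraries. The 5 Langerhans and myeloid markers were higher in EpdSC, as Ly6c1 was. They summed to 11.7 and 14.0 CPM in aged EpdSC and 22.8 and 23.1 CPM in young EpdSC. In HFSC they summed to 4.69 and 7.64 CPM in aged mice and 1.90 and 6.25 CPM in young mice. The part of endothelial, neutrophil, Langerhans and myeloid cells in the difference of Ly6c1 was not tested.

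Arc was the gene of the locus whose RNA was called by age in EpdSC. Arc RNA was 50.4 and 56.5 CPM in aged EpdSC, against 5.65 and 3.06 CPM in young EpdSC. In HFSC it was 2.35 and 2.70 CPM in aged mice, against 1.80 and 0.669 CPM in young mice. Both aged EpdSC libraries lay far above all others. The log2 fold change of aged over young EpdSC was 3.61 ± 0.37 (SE, adjusted p = 0.0054 in edgeR), and Arc was the only gene of the locus called in this comparison, in which 0.0559% of genes were called higher and 0.0280% lower. In HFSC the log2 fold change was 1.01 ± 0.41 (SE, adjusted p = 0.546). The age effect in HFSC minus that in EpdSC was -2.61 ± 0.54 (SE), which edgeR did not call (adjusted p = 0.251) and DESeq2 did (adjusted p = 0.000455). Suprabasal markers moved with age in EpdSC as well, summing to 2738 and 3115 CPM in aged EpdSC against 1789 and 1959 CPM in young EpdSC. The EpdSC and interfollicular basal markers summed to 22299 and 23760 CPM in aged EpdSC against 20204 and 16776 CPM in young EpdSC. Langerhans and myeloid markers went the other way, with 11.7 and 14.0 CPM in aged EpdSC against 22.8 and 23.1 CPM in young EpdSC. The part of these cell types in the difference of Arc was not tested.

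The chromatin of Arc differed by age in EpdSC over the gene body and the low end more than at the high end. None of the 39 open windows differed at least 2-fold by age in EpdSC, against 0.282% of the genome higher and 0.274% lower. The element over the high end of Arc (74672001 to 74674000) had 28.5 CPM in aged EpdSC against 20.7 CPM in young EpdSC, which is 1.37-fold (1.24 to 1.53). It had 7.76 CPM in aged HFSC and 7.68 CPM in young HFSC. A smaller element 6431 bases beyond that end had 14.5 CPM in aged EpdSC against 10.4 CPM in young EpdSC, and 1.70 CPM in aged HFSC against 1.30 CPM in young HFSC. It was thus 8.52-fold (5.01 to 15.8) higher in EpdSC than in HFSC in aged mice, or 4.15-fold relative to the genome median, and 8.00-fold (5.63 to 11.7) in young mice.

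Below the element, a run of 8 neighbouring windows, 4 kb from 74667501 to 74671500, was at least 2-fold higher in aged than in young EpdSC in each window. It covers most of Arc and reaches past its low end. The run summed to 18.7 CPM in aged EpdSC against 5.92 CPM in young EpdSC, and to 2.55 CPM in aged HFSC against 2.37 CPM in young HFSC. Its windows ranged from 1.70 to 3.40 CPM in aged EpdSC and from 0.455 to 1.37 CPM in young EpdSC, so that every window of aged EpdSC was above every window of young EpdSC. The ratio was 3.15-fold (2.67 to 3.72). The windows within 1000 bases of the low end of Arc, which lie in the run, had 10.7 CPM in aged EpdSC against 3.19 CPM in young EpdSC, which is 3.36-fold (2.69 to 4.22), and those around the high end 1.41-fold (1.27 to 1.56). The whole genome held 4 such runs of 8 or more windows, among 856 of 2 or more. Another of the 4 lies 3 kb below the low end of the locus, with 46.7 CPM in aged EpdSC against 13.1 CPM in young EpdSC over 9 windows that overlap no RefSeq coding gene. Counted over windows wholly inside the gene, Arc had 16.5 CPM in aged EpdSC against 6.99 CPM in young EpdSC, and was 1 of 4 gene bodies (0.0241% of 16567) at least 2-fold higher in aged EpdSC, while 0.0362% were lower. Of the 12 gene bodies of the locus that could be compared, Arc was the only one of these. In the other comparisons, 8 of the 12 were at least 2-fold higher in EpdSC than in HFSC and 0 lower, in aged mice (14.4% and 5.09% of all gene bodies) and in young mice (7.44% and 2.50%). In aged over young HFSC, Jrk and Ly6e were higher and 0 lower (1.56% and 2.37% of all gene bodies). The body of Jrk had 6.07 CPM in aged HFSC against 2.87 CPM in young HFSC over 13 windows, a low level per window. The open element at its end went the other way, at 0.552-fold. All windows of the locus below the open threshold summed to 1.29-fold in aged over young HFSC, and their part in the Jrk value was not tested. The run and the gene body were examined after the window values had been seen, so they describe these 2 libraries and test nothing.

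**Figure D4:**
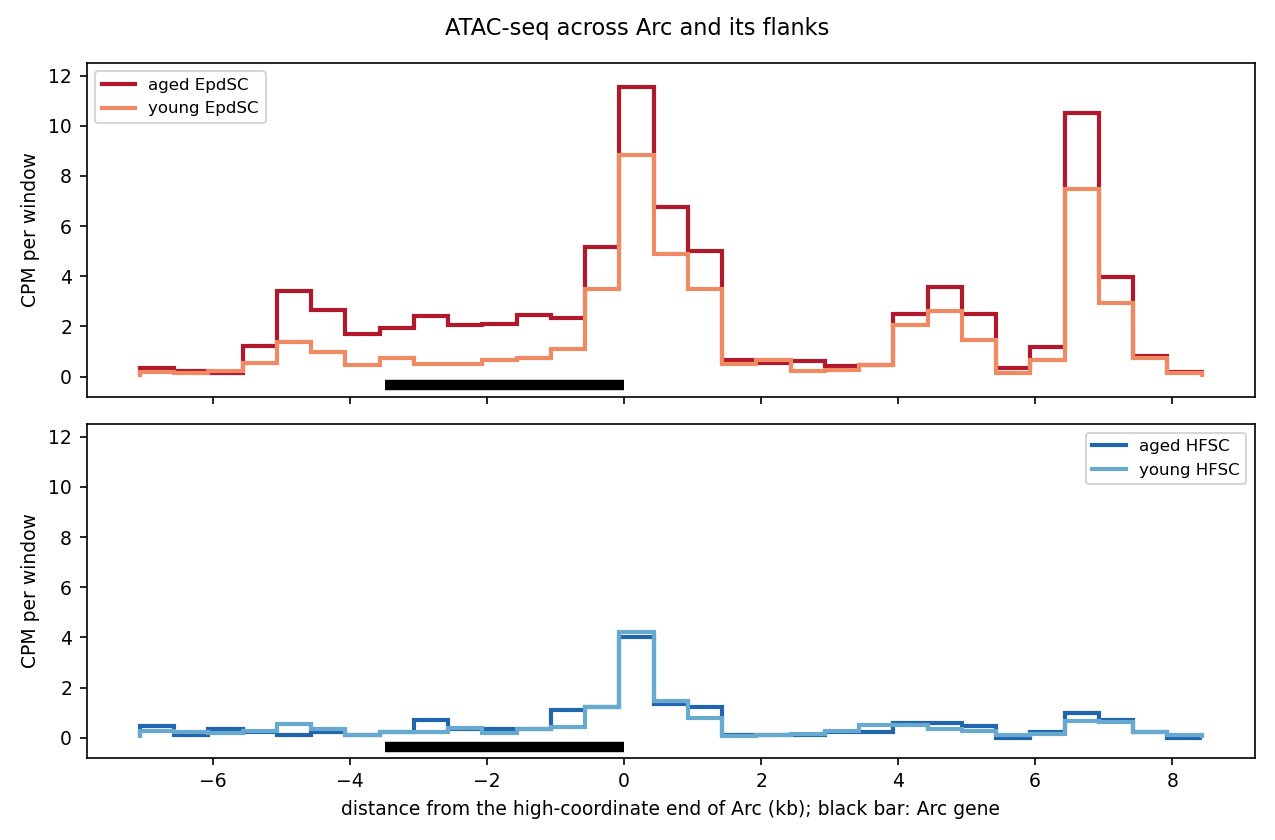
CPM per window (vertical axis) against distance from the high-coordinate end of Arc in kb (horizontal axis), for EpdSC above and HFSC below, with the gene as a black bar. Over the gene the aged EpdSC line runs at 1.70 to 3.40 CPM per window in the 4 kb run, above the young EpdSC line, while both HFSC lines are low and close together.

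Other immediate early genes were not called by age in EpdSC. In a list of 14 that was chosen after the values of Arc were seen (Fos, Fosb, Fosl1, Jun, Junb, Egr1, Egr2, Egr3, Ier2, Ier3, Atf3, Nr4a1, Dusp1 and Zfp36), 14 of 14 had a log2 fold change above 0 in aged over young EpdSC, with a median of 0.63 against 0 over all genes, and 0 were called by edgeR (5 at an unadjusted p under 0.05) or by DESeq2. In HFSC 13 of 14 were above 0 with a median of 0.59, and Junb was called (log2 fold change 1.11, adjusted p = 0.0317 in edgeR), with 3 called by DESeq2. Fos, for example, had 3638 and 3515 CPM in aged EpdSC against 2513 and 2068 CPM in young EpdSC. These genes also respond to the handling of tissue, and their part in the difference of Arc was not tested.

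The 4 elements between Ly6m and Ly6e lie far from any named coding gene and were low in HFSC. They stand 10297 and 20297 bases beyond the high end of Ly6m and 33025 and 28025 bases below the low end of Ly6e. The strongest (74902001 to 74903000) had 15.2 CPM in aged EpdSC and 14.4 CPM in young EpdSC, against 0.970 CPM in aged HFSC and 1.11 CPM in young HFSC. Its ratio of EpdSC over HFSC was 15.6-fold (7.85 to 36.5) in aged mice, or 7.61-fold relative to the genome median, and 13.0-fold (8.94 to 19.6) in young mice. The other 3 were 5.65- to 8.09-fold higher in EpdSC in aged mice (2.75- to 3.93-fold relative to the genome median) and 10.1- to 19.4-fold higher in young mice. The values of 5.65 and 19.4 are both of the element from 74926501, which had 7 counts in each HFSC library. Their intervals were 2.65 to 14.4 in aged mice and 9.25 to 49.0 in young mice. By age in EpdSC these 4 elements were at 0.831- to 1.18-fold. On the other side of Ly6e, an element 8097 bases beyond the high end of Ly6e, had 4.23 CPM in aged EpdSC and 4.93 CPM in young EpdSC, against 1.33 CPM in aged HFSC and 0.611 CPM in young HFSC.

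Jrk, a gene for a DNA-binding protein, and Them6, which encodes a protein of the thioesterase family, had open ends in every library. The Jrk element had 9.94 CPM in aged EpdSC and 7.82 CPM in young EpdSC, against 4.85 CPM in aged HFSC and 8.79 CPM in young HFSC. The Them6 element had 16.8 CPM in aged EpdSC and 13.6 CPM in young EpdSC, against 6.55 CPM in aged HFSC and 10.0 CPM in young HFSC. In young mice the 2 populations were close at both, at 0.890-fold (0.746 to 1.06) for Jrk and 1.35-fold (1.16 to 1.57) for Them6. RNA of neither gene was called in any contrast, and Jrk ranged from 9.96 to 19.8 CPM over the 8 libraries. Lynx1 had 1 open window inside the gene, with 3.71 CPM in aged EpdSC and 2.92 CPM in young EpdSC, against 0.607 CPM in aged HFSC and 1.18 CPM in young HFSC. Lynx1 RNA was 11.6 and 10.8 CPM in aged EpdSC and 11.2 and 8.13 CPM in young EpdSC, against 5.77 and 4.18 CPM in aged HFSC and 5.59 and 3.34 CPM in young HFSC. Its log2 fold change of EpdSC over HFSC was 1.17 ± 0.31 in aged mice and 1.11 ± 0.31 in young mice (SE, adjusted p = 0.0165 and 0.0210 in edgeR). That call was lost in aged mice without aged HFSC replicate 2 (adjusted p = 0.0901) or aged EpdSC replicate 1 (adjusted p = 0.0670), and in young mice without young HFSC replicate 2 (adjusted p = 0.152) or young EpdSC replicate 1 (adjusted p = 0.166). The Ly6g6g element had 10.3 CPM in aged EpdSC and 10.7 CPM in young EpdSC, against 3.76 CPM in aged HFSC and 7.41 CPM in young HFSC. The element 1246 bases below Lypd2 had 4.88 CPM in aged EpdSC and 5.73 CPM in young EpdSC, against 1.70 CPM in aged HFSC and 4.70 CPM in young HFSC.

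Without scaling to the genome median, 2 of the 17 elements were not at least 2-fold higher in EpdSC in aged mice, and neither lies by a named gene. The element from 74784001 to 74785500, at the end of a predicted long noncoding RNA, had 18.3 CPM in aged EpdSC and 21.6 CPM in young EpdSC, against 11.8 CPM in aged HFSC and 26.5 CPM in young HFSC. The element from 75086001 to 75087000 holds the window with the highest mean of the locus, 9.04 CPM. It had 11.2 CPM in aged EpdSC and 9.70 CPM in young EpdSC, against 21.7 CPM in aged HFSC and 10.4 CPM in young HFSC. The other libraries were thus close together and aged HFSC stood above them, at 2.10-fold (1.73 to 2.54) over young HFSC, or 3.58-fold relative to the genome median. Aged EpdSC over aged HFSC was 0.514-fold (0.423 to 0.626) there, and this was the 1 element at least 2-fold lower in aged EpdSC relative to the genome median.

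By age, the element ratios spread more widely in HFSC than in EpdSC, and the HFSC ratios rest on fewer counts. Elements held 5 to 179 counts in aged HFSC and 85 to 1031 counts in aged EpdSC. Counting error was thus larger in HFSC, and its part in the wider spread was not tested. Of the 39 open windows, 4 were at least 2-fold higher and 4 at least 2-fold lower in aged than in young HFSC, against 0.501% and 30.8% of the genome. Relative to the genome median 12 were higher and 0 lower, against 5.76% and 2.17% of the genome. These counts rest on 1 aged HFSC library with a lower share of its counts in open chromatin, and the part of that share in them was not tested. By element, 4 of 17 were at least 2-fold higher in aged HFSC and 2 at least 2-fold lower, and relative to the genome median 8 were higher and 0 lower. The 2 lower ones were those near Lypd2, at 0.361-fold (0.192 to 0.630), and at the long noncoding RNA, at 0.444-fold (0.355 to 0.549), which are 0.617-fold and 0.758-fold relative to the genome median. The 4 higher ones were those at Ly6e, 28025 bases below it, 8097 bases above it and from 75086001, and for 2 of them the interval reached below 1. In EpdSC all 17 elements lay between 0.831- and 1.39-fold.

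**Figure D5:**
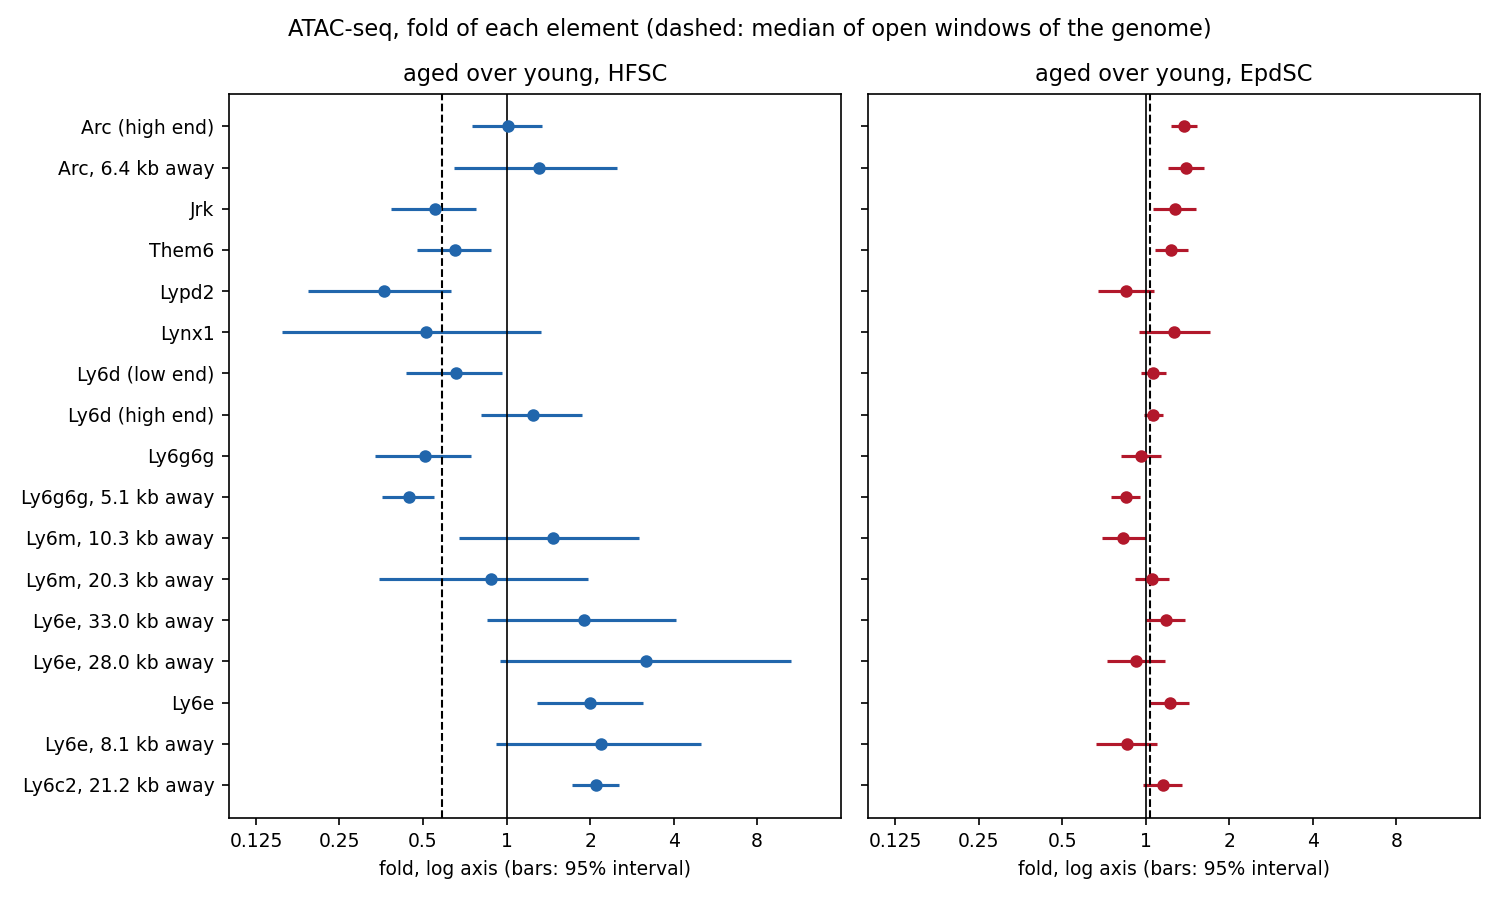
Fold of aged over young (horizontal log axis, 95% intervals) of each of the 17 elements in HFSC on the left and EpdSC on the right, with the median of all open windows of the genome as a dashed line. In EpdSC all elements lie between 0.831 and 1.39, whereas in HFSC they run from 0.361 to 3.17 around a genome median of 0.585. Each HFSC ratio uses the aged HFSC library, the one with the lowest total count.

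In RNA, every gene of the locus called between the populations was higher in EpdSC. Of the 37 RefSeq genes of the locus, 29 were found in the RNA tables, some under an older symbol (Slurp2, Ly6m and Ly6a2), and 15 passed the filter on low counts. A gene that passed through the group where it is high had to differ, so these counts are no support by themselves. Ly6a, 1 of the genes called, was bound to differ by the sort. In EpdSC over HFSC, 6 of the 15 were called higher and 0 lower at each age (Arc, Lynx1, Ly6d, Ly6e, Ly6a and Ly6c1), against 12.2% higher and 11.9% lower of all genes in aged mice and 13.0% and 13.1% in young mice. For Arc the log2 fold change was 4.40 ± 0.39 in aged mice and 1.80 ± 0.40 in young mice (SE, adjusted p = 6.45e-06 and 0.0054 in edgeR), and in young mice it was not called when the fit held only the 4 young libraries (adjusted p = 0.0518). For Ly6e it was 0.63 ± 0.19 in aged mice and 3.32 ± 0.21 in young mice (SE, adjusted p = 0.0300 and 3.78e-07 in edgeR). The call of Ly6e in aged mice was lost without aged HFSC replicate 1 (adjusted p = 0.242), aged EpdSC replicate 1 (0.129) or aged EpdSC replicate 2 (0.0653). In aged over young HFSC, 2 of 15 were called higher, Ly6d and Ly6e, and 0 lower, against 0.294% and 0.0745% of all genes. In these 3 comparisons edgeR and DESeq2 each called 0 lower.

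The other 9 tested genes were low except Jrk. Slurp1, the secreted relative, had 0.0787 to 0.592 CPM over the 8 libraries. Slurp2 was at 0 in all 4 young libraries and had 2.44 CPM in aged EpdSC replicate 2 against 0.124 CPM in replicate 1. Them6 had 1.39 and 1.60 CPM in aged EpdSC and 1.38 and 0.954 CPM in young EpdSC, against 0.704 and 0.658 CPM in aged HFSC and 0.699 and 0.315 CPM in young HFSC. Mroh4, Cyp11b1 (a steroid hydroxylase of the adrenal cortex), Ly6m and Ly6i had at most 0.704 CPM in any library. None of the 9 was called in any contrast.

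Of 22 listed genes of the Ly6 and uPAR family outside the locus, 14 were tested in RNA. In EpdSC over HFSC, 2 of 14 were called higher and 1 lower in aged mice (12.2% and 11.9% of all genes), with a median log2 fold change of -0.32. In young mice 3 were called higher and 1 lower (13.0% and 13.1% of all genes), with a median of -0.22. The medians over all genes were -0.09 and -0.06. Ly6g6c was higher in EpdSC at both ages, with a log2 fold change of 1.35 ± 0.19 in aged mice and 3.05 ± 0.21 in young mice (SE, adjusted p = 0.000262 and 7.60e-07 in edgeR), and higher in aged than in young HFSC by 1.75 ± 0.20 (SE, adjusted p = 0.0089). Lypd6 was lower in EpdSC, by -4.19 in aged mice and -3.77 in young mice. The difference between the locus and the rest of the family was not tested.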

How the data were processed

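The authors deposited ATAC-seq counts per 500-base window, in steps of 250 bases, and RNA-seq counts per gene, both whole numbers and not normalised. The submitters' processing notes name STAR, Bowtie, Cell Ranger and mm10, with no versions. On duplicate removal, the shift for the transposase and strand in RNA counting, neither these notes nor the labels used here say anything. The 2 single-cell libraries were not used here.

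Windows starting at multiples of 500 were scaled to CPM by the library's sum over chromosomes 1 to 19 and X. Windows and gene bodies were counted as 2-fold higher or lower with a pseudocount of 0.25 CPM, and printed ratios of elements, runs, gene ends and gene bodies used none. Elements join open windows across at most 1 window. With 1 library per group nothing was tested, and PCR copies were not told apart by molecular identifiers, so intervals cover counting error only. The strand of a gene was taken from the RefSeq promoter table where it lists the gene. Gene bodies are all windows wholly inside a gene, for coding genes of at least 3 windows and a mean of 2 CPM.

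RNA counts were tested with edgeR 4.0.16 (quasi-likelihood, TMM scaling, filterByExpr, 21464 of 47729 genes, Benjamini-Hochberg, called at 0.05) in 1 fit of all 8 libraries, in R 4.3.3. DESeq2 1.42.0 was an alternative. RNA levels are CPM with TMM-scaled library sizes. The SE is the log2 fold change over the root of F. Replicates are not said to be separate animals, so p-values measure the spread between these samples only. Both procedures were tested on simulated data. Other work used Python 3.11.15 and Biopython 1.88.

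Every named coding gene that passed the RNA filter, every element near such a gene and the elements with the largest ratios are named. Members and lists were chosen with earlier results of these data known. The list of immediate early genes, the runs and the gene bodies were chosen after the values of the locus were seen. The labels give the strain under different names, so none is stated.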

Additional observations from a re-analysis of the deposited data

Results flagged for a closer look

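For Ly6e RNA, the age effect differed between the populations in a test of the difference itself. The effect of aged over young was larger in HFSC than in EpdSC by 2.70 on the log2 scale (adjusted p = 0.0144 in edgeR, and 0.0949 without aged EpdSC replicate 2).

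In ATAC-seq, 2 elements moved in opposite directions with age in the 2 populations, each with a counting interval on its side of 1. The Jrk element was at 0.552-fold in HFSC and 1.27-fold in EpdSC, and the Them6 element at 0.652-fold in HFSC and 1.24-fold in EpdSC. These differences were not tested, since each group has 1 library. Both HFSC ratios lie near the median of all open windows of the genome, 0.585-fold.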

How the results depend on the processing

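Calls rest on 1 ATAC-seq library and 2 RNA-seq libraries per group, and the aged HFSC ATAC-seq library, the shallowest, limits every comparison it enters. Window counts moved with the threshold. Of windows at least 2-fold higher in EpdSC, the 33 in aged mice and 25 in young mice became 18 and 16 at 4-fold, 11 and 9 with windows open at 4 CPM, and 66 and 56 at 1 CPM. Without aged HFSC in the mean, an alternative chosen after seeing the data, 49 windows were open and 34 of them higher in young EpdSC. In aged over young HFSC, the 4 higher and 4 lower became 0 and 0 at 4-fold, 1 and 1 at 4 CPM, and 1 and 2 with a pseudocount of 1 CPM. The higher count there was also 7 at 1 CPM, 2 with at least 20 counts in the pair and 2 with shifted windows. In EpdSC by age, 2 windows were higher at 1 CPM.

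Scaling by the median ratio, taken over open windows only, gave 18 higher and 2 lower in aged EpdSC over HFSC. In aged over young HFSC it gave 12 higher and 0 lower. The log2 ratio of the locus sum turned from 0.99 to -0.12 for EpdSC over HFSC in aged mice, and was 0.84 in young mice, 1.03 for age in HFSC and 0.068 for age in EpdSC. The Jrk element in aged EpdSC over HFSC reversed to -0.076. The log2 ratio of the Arc gene body in EpdSC was 1.53 with shifted windows against 1.24, a setting also chosen after seeing the data. The cause of these changes was not tested.

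In RNA, the difference of age effects called 3 genes higher and 1 lower with DESeq2 or with no filter, against 1 and 0. With no filter 5 genes were called higher in aged HFSC and 2 in aged EpdSC, and in the fit of the 4 HFSC libraries 1. Leaving out 1 library gave 0 to 2 higher and 0 to 1 lower for the difference, the 0 without aged EpdSC replicate 2 and the 2 and 1 without young HFSC replicate 2. Same-numbered libraries had correlations of deviations from the group means of -0.21 to 0.17. With 2 libraries per group these values cannot settle whether replicate numbers pair the samples. A replicate block left 2 genes called higher by age in HFSC, 1 by age in EpdSC, 6 in EpdSC over HFSC at each age and 1 for the difference.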

Other observations

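Of the 4 runs of 8 or more windows in the genome that were at least 2-fold higher in aged than in young EpdSC, the other pair lies in named genes. The run in Zswim4 on chromosome 8 held 15 windows and 113 CPM in aged EpdSC against 42.4 CPM in young EpdSC, with 13.6 CPM in aged HFSC against 13.7 CPM in young HFSC. The run in Stk32b on chromosome 5 held 8 windows and 21.4 CPM in aged EpdSC against 5.76 CPM in young EpdSC, with 4.37 CPM in aged HFSC against 2.03 CPM in young HFSC. The run 3 kb below the locus had 5.46 CPM in aged HFSC against 2.03 CPM in young HFSC. Each value comes from 1 library per group.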
